A study of Homo sapiens with 9 samples.

Results

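The interleukin-1 (IL-1) family and its receptors were followed in RNA sequencing of MDA-MB-231 cells, a human triple-negative breast cancer line, kept for 6 days in medium of low or high viscosity. The members were 8 genes named as a list of ligands, antagonist and receptors, out of 60664 genes listed in the count tables: *IL1A*, *IL1B*, *IL18* and *IL33* (ligands), *IL1RN* (antagonist), and *IL1R1*, *IL1RAP* and *IL1RL1* (receptors). The list was selected on earlier results of these same samples, in particular the level of *IL1RN* in knockdown and control cells at 8 cP. The 9 samples fell into 3 groups of 3. Scramble control (SC) cells, labelled wild type and carrying a non-targeting hairpin, were kept at 0.77 cP or at 8 cP, the higher viscosity being reached with methylcellulose. The third group carried a short hairpin RNA against *TRPV4*, a calcium-permeable ion channel, and was kept at 8 cP (shTRPV4). All 9 samples came from 1 cell line stably transduced with a lentiviral hairpin vector that also confers puromycin resistance, and the labels do not state whether replicates were separate cultures, so that the spread between them may be in part technical. Knockdown cells at 0.77 cP were not analysed here, so viscosity and knockdown were compared one at a time.

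IL-1α and IL-1β, the products of *IL1A* and *IL1B*, bind the receptor IL1R1, which then recruits the accessory chain IL1RAP. The joined receptors signal through MYD88 and kinases of the IRAK family to NF-κB and AP-1, and so turn on cytokine, chemokine and protease genes. The receptor antagonist, the product of *IL1RN*, occupies IL1R1 without recruiting the accessory chain. IL-18 and IL-33 are related ligands with receptors of their own, that of IL-33 being encoded by *IL1RL1* (ST2). In breast tumours IL-1 signalling is known from both the tumour cells and the cells around them.

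Library totals ranged from 64571681 to 103518036 counts. *TRPV4*, the gene targeted, had 40, 28 and 54 counts in SC cells at 0.77 cP, 64, 45 and 24 in SC cells at 8 cP, and 7, 1 and 13 in shTRPV4 cells, and so was low in the libraries labelled as knockdown. Genes that mark this line (*VIM*, *CD44*, *KRT18* and *KRT8*) summed to 2970 to 3610 CPM (depth-scaled counts from edgeR, with TMM) in every sample, and *ESR1* and *PGR*, the hormone receptor genes, reached 0.0389 CPM at most. *ERBB2*, fixed as a gene that should be low, lay between 89.6 and 96.8 CPM, so the third receptor marker was not absent. Because IL-1 genes are also expressed by leukocytes and stromal cells, markers of those cells were summed. The 8 leukocyte and myeloid markers summed to 12.1 to 13.3 CPM in SC cells at 0.77 cP, 10.8 to 11.9 at 8 cP and 8.04 to 8.77 in shTRPV4 cells, most of it *CD14* and *CSF1R*. *PTPRC*, the pan-leukocyte marker, stayed at or under 0.176 CPM and *FCGR3A* had no count in any sample. The 5 T cell markers summed to 1.31 to 1.53, 1.37 to 1.71 and 2.22 to 2.42 CPM in the same order, nearly all *CD8A*, with *CD2* and *CD3G* at 0 throughout. The 3 endothelial markers summed to 4.0 to 6.27, 2.5 to 3.11 and 2.16 to 2.54 CPM, nearly all *PECAM1*, with *CDH5* at 0 in 8 samples. The 4 fibroblast markers summed to 0.778 to 0.982, 0.647 to 0.826 and 1.29 to 1.69 CPM, mostly *LUM*. These sums moved between the same groups as some members below, and their part in those results was not tested.

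Of the 8 members, 6 passed the filter on low counts, under which 18264 of all genes were kept. Expressed per kilobase of exon, so that genes could be set beside each other, the members formed an abundant set (*IL18*, *IL1R1* and *IL1RAP*) and a scarce set (*IL1A*, *IL1B* and *IL1RN*). In SC cells at 0.77 cP the level was 6.32 ± 0.308 CPM per kilobase for *IL18*, 4.74 ± 0.543 for *IL1R1* and 3.51 ± 0.103 for *IL1RAP* (SD, n = 3). The scarce set had 0.293 ± 0.162 CPM per kilobase for *IL1A*, 0.188 ± 0.0928 for *IL1B* and 0.0635 ± 0.0467 for *IL1RN*, and the samples of *IL1A* and *IL1B* overlapped. At 8 cP SC cells kept this order, with 4.80 ± 0.435, 3.36 ± 0.280, 3.21 ± 0.289, 0.246 ± 0.0673, 0.131 ± 0.0325 and 0.0803 ± 0.0309 CPM per kilobase, and here the samples of *IL1R1* and *IL1RAP* overlapped. In shTRPV4 cells *IL1RN* stood at 0.542 ± 0.146 CPM per kilobase, above *IL1B* at 0.200 ± 0.0671 and overlapping with *IL1A* at 0.659 ± 0.0441. The places of *IL1R1* and *IL1RAP* were exchanged in all 3 groups when the longest transcript was used as the length of a gene, as were those of *IL1A* and *IL1B* in SC cells at 0.77 cP and of *IL1A* and *IL1RN* in shTRPV4 cells. *IL1RL1* and *IL33* stayed under the filter.

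**Figure D1:**
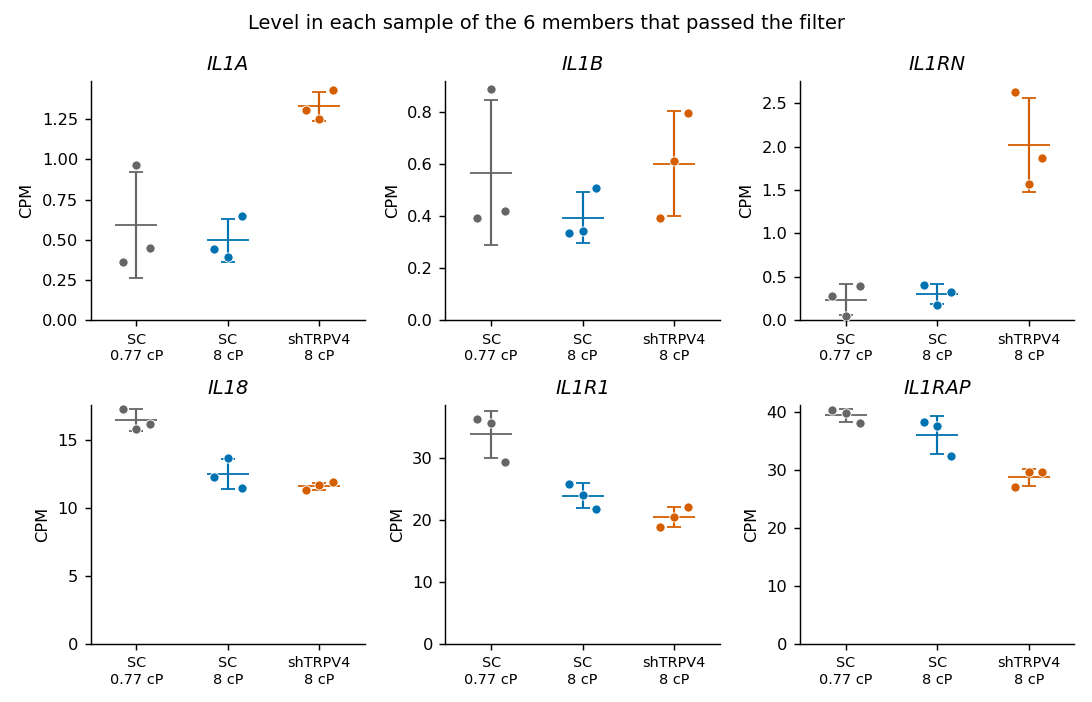
Level in CPM (y axis of each panel, starting at 0) of the 6 members that passed the filter in each sample; points are samples, horizontal lines the mean and bars the SD of 3 samples. *IL1A* and *IL1RN* were high in the 3 shTRPV4 samples, *IL18* and *IL1R1* were high in the 3 SC samples at 0.77 cP, and *IL1RAP* was low in the 3 shTRPV4 samples.

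*IL1RN*, the antagonist gene (chromosome 2, 113099315 to 113134016, plus strand), had the widest range among the members tested as a ratio of its highest to its lowest level, though *IL1R1* spanned more counts and CPM. It had 26, 3 and 40 counts in SC cells at 0.77 cP and 40, 17 and 29 in SC cells at 8 cP. In shTRPV4 cells it had 241, 123 and 169 counts. All 3 shTRPV4 samples therefore lay above every SC sample, whereas the SC samples of the 2 viscosities overlapped. The count of 3 in replicate 2 of SC cells at 0.77 cP has an exact Poisson 95% interval of 0.619 to 8.77 counts, which covers the error of counting only, and that library was the shallowest. The levels were 0.237 ± 0.174 CPM in SC cells at 0.77 cP, 0.30 ± 0.115 CPM in SC cells at 8 cP and 2.02 ± 0.546 CPM in shTRPV4 cells (SD, n = 3). The log2 fold change was 2.75 (standard error, SE, 0.37) for shTRPV4 minus SC cells at 8 cP, a 6.73-fold difference. This value was known when the members were listed and is given as a description. Among all genes tested, 19 had a change of at least that size in this comparison, *IL1RN* included. Relative to SC cells at 0.77 cP it was 2.98 (SE 0.38), and for SC cells at 8 cP minus SC cells at 0.77 cP it was 0.23 (SE 0.45). Without the library of 3 counts the last value turned to -0.14 and the one before it was 2.60.

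*IL1A* encodes IL-1α, an agonist that can act as an uncleaved precursor (chromosome 2, 112773925 to 112784493, minus strand). It had 34, 62 and 46 counts in SC cells at 0.77 cP, 44, 38 and 59 in SC cells at 8 cP and 120, 98 and 129 in shTRPV4 cells. The shTRPV4 samples lay above all SC samples, with levels of 0.591 ± 0.328, 0.496 ± 0.136 and 1.33 ± 0.0889 CPM (SD, n = 3). The log2 fold change was 1.43 (SE 0.30) for shTRPV4 minus SC cells at 8 cP and 1.22 (SE 0.30) against SC cells at 0.77 cP. Between the viscosities it was -0.20 (SE 0.32), less than its standard error, and it turned to 0.30 without replicate 2 of SC cells at 0.77 cP, whose 62 counts were the highest of the SC samples in the shallowest library. The T cell and fibroblast marker sums, nearly all *CD8A* and mostly *LUM* as given above, were also highest in the shTRPV4 samples, as *IL1A* and *IL1RN* were. The other markers of these lists differed. *CD3E* also had its highest mean in shTRPV4 cells (0.0264 CPM). *CD3D*, *DCN*, *PDGFRA* and *COL3A1* had theirs in SC cells at 0.77 cP (*COL3A1* 0.0681, 0.0597 and 0.0385 CPM in the same order), and *CD2* and *CD3G* had no counts.

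*IL1B* encodes IL-1β, whose precursor is cleaved by inflammasome caspase before release (chromosome 2, 112829751 to 112836816, minus strand). It had 37, 57 and 43 counts in SC cells at 0.77 cP, 33, 33 and 46 at 8 cP and 36, 48 and 72 in shTRPV4 cells. All 3 groups overlapped. The levels were 0.566 ± 0.279, 0.394 ± 0.0977 and 0.601 ± 0.202 CPM (SD, n = 3). The log2 fold changes were -0.48 (SE 0.35) between the viscosities, 0.61 (SE 0.35) for shTRPV4 minus SC cells at 8 cP and 0.13 (SE 0.34) against SC cells at 0.77 cP. Without replicate 2 of SC cells at 0.77 cP the first was -0.04 and the last 0.57. With 33 to 72 counts a sample, these differences were known less precisely than those of the abundant members, whose SE was below 0.1.

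The make-up of the agonist RNA differed between the groups in these counts. *IL1A* took 47.9%, 52.1% and 51.7% of the counts of the 2 agonist genes in SC cells at 0.77 cP, and 57.1%, 53.5% and 56.2% at 8 cP. In shTRPV4 cells it took 76.9%, 67.1% and 64.2%, so that the lowest shTRPV4 share lay above the highest SC share. The exact binomial 95% intervals, which cover counting error only, were 45.4% to 68.4% for the highest SC share and 57.1% to 70.8% for the lowest shTRPV4 share, and these 2 intervals overlapped. Set against both agonists per kilobase of exon, *IL1RN* was at a log2 ratio of -2.07, -5.95 and -1.79 in SC cells at 0.77 cP, the second being the sample of 3 counts. The ratio was -1.61, -2.71 and -2.52 in SC cells at 8 cP and -0.15, -0.97 and -0.96 in shTRPV4 cells. Antagonist RNA was thus below agonist RNA in all 9 samples and nearest to it in the shTRPV4 samples, with a mean log2 ratio of -0.69 ± 0.47 (SD, n = 3) against -2.28 ± 0.59 in SC cells at 8 cP. With the longest transcript as the length, the shTRPV4 mean was -0.14 and 1 shTRPV4 sample had a ratio of 0.47, above the agonists. These ratios are of RNA and not of protein.

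**Figure D2:**
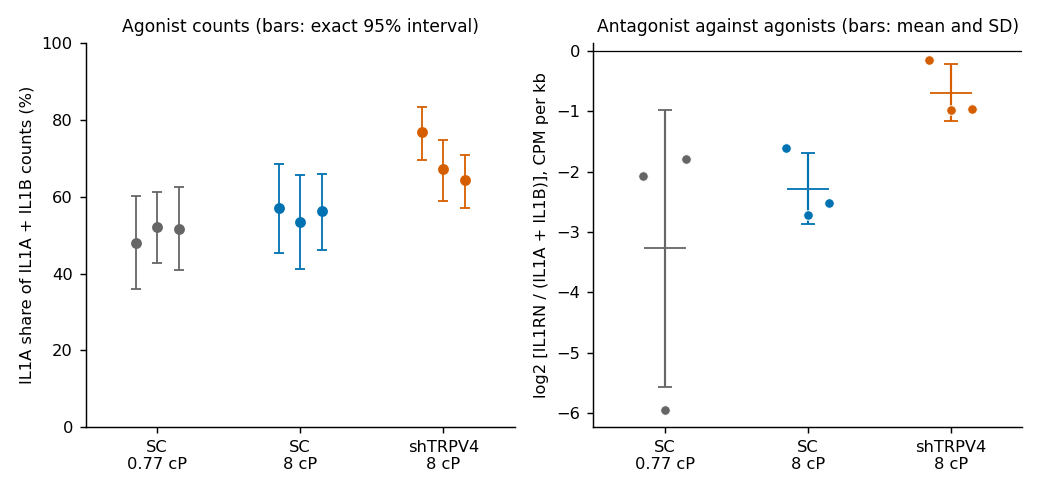
Left, share of *IL1A* in the counts of *IL1A* and *IL1B* (y axis, %), 1 point per sample with its exact binomial 95% interval; right, log2 ratio of *IL1RN* to the sum of *IL1A* and *IL1B* in CPM per kilobase (y axis), 1 point per sample with the mean and SD of 3 samples. The shTRPV4 samples had the highest shares, 64.2% to 76.9%, and the highest ratios, -0.97 to -0.15.

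*IL1A* and *IL1RN* were both high in the shTRPV4 samples, while *IL1B*, which lies between them, overlapped between the groups. Promoter windows of these 3 genes, picked with their levels known, are shown. They are RefSeq windows of 300 bases, most of them before a transcript start (GRCh38.p14), read 5′ to 3′ along the gene. Capitals mark matches to the AP-1 motif TGANTCA, which reads the same on both strands. RefSeq also has 1 more *IL1A* window (chr2:112784444-112784743) and 1 more *IL1RN* window (chr2:113127239-113127538), each overlapping a window shown and not printed here.
IL1A (chr2:112784351-112784650, minus strand): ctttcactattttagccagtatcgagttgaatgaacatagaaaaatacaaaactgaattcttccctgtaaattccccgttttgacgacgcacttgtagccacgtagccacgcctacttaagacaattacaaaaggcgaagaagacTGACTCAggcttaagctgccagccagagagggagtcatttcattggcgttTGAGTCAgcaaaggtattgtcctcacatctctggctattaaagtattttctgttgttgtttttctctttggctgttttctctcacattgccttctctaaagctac
IL1B (chr2:112836730-112837029, minus strand): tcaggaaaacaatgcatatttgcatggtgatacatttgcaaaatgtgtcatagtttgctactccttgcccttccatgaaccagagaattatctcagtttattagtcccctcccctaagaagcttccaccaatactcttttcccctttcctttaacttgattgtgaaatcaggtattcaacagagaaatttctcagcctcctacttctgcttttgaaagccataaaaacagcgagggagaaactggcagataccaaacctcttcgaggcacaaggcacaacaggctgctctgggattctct
IL1RN (chr2:113117721-113118020, plus strand): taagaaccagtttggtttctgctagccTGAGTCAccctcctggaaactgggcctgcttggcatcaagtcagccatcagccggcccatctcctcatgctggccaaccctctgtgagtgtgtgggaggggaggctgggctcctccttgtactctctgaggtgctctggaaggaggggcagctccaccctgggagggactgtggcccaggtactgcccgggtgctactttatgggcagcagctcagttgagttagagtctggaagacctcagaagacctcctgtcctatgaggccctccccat
IL1RN (chr2:113127348-113127647, plus strand): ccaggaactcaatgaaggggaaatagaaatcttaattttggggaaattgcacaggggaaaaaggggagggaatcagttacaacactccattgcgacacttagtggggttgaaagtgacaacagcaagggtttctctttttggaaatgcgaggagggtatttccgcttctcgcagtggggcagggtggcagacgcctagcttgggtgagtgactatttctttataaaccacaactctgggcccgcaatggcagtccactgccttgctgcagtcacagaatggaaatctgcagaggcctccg

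The *IL1A* window shown held 2 AP-1 matches, TGACTCA at 105 and TGAGTCA at 55 bases before its start. Counted from the start of the other *IL1A* window, which is the gene start given above, the same matches lay 12 bases before and 38 bases after the start. Of the *IL1RN* windows the first held 1 match, TGAGTCA at 223 bases before the start, and the other two held none. The *IL1B* window held none. Among the other members with a window only *IL1RL1*, which was not detectable, had a match, TGATTCA at 191 bases before the start of 1 of its windows. *IL18* had no window and was not searched. Of 35116 promoter windows of the same length, 7.71% held an AP-1 match. The cyclic AMP response element TGACGTCA, the κB motif and the CArG box, each searched on both strands, had no match in any of the 15 windows of the 7 members that have one, against 1.85%, 11.3% and 1.29% of all windows. These shares are counted per window and not per gene, and the genes differed in their number of windows. A match is a match of letters in these windows, and the transcript start used by these cells was not measured. AP-1 activity was not measured either, and a part of these matches in the differences between the groups was not tested.

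*IL1R1*, the signalling receptor (chromosome 2, 102064544 to 102179874, plus strand, with 11 exon bases shared with an antisense gene), was lower at the higher viscosity. It had 3427, 2284 and 3015 counts in SC cells at 0.77 cP, or 36.3, 35.6 and 29.3 CPM. At 8 cP it had 25.8, 24.1 and 21.8 CPM in SC cells and 18.9, 20.4 and 22.1 CPM in shTRPV4 cells. No sample at 8 cP reached the lowest sample at 0.77 cP, and the 2 groups at 8 cP overlapped. The means were 33.8 ± 3.86, 23.9 ± 1.99 and 20.4 ± 1.61 CPM (SD, n = 3). The log2 fold change was -0.49 (SE 0.084) between the viscosities in SC cells, -0.23 (SE 0.085) for shTRPV4 minus SC cells at 8 cP and -0.72 (SE 0.085) in shTRPV4 cells relative to SC cells at 0.77 cP. The smallest of these did not pass the threshold used over all genes but did so under 6 of the alternatives tried. In bulk RNA fewer cells that carry a transcript and less of it per cell cannot be told apart, for this and every other member.

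*IL1RAP*, the shared accessory chain (chromosome 3, 190514051 to 190659750, plus strand), was lower in shTRPV4 cells. It had 40.3, 39.8 and 38.1 CPM in SC cells at 0.77 cP, 38.3, 37.5 and 32.3 at 8 cP and 27.0, 29.6 and 29.6 in shTRPV4 cells. The SC groups overlapped, and every shTRPV4 sample lay below every SC sample. The log2 fold change was -0.13 (SE 0.064) between the viscosities, -0.33 (SE 0.064) for shTRPV4 minus SC cells at 8 cP and -0.46 (SE 0.064) against SC cells at 0.77 cP. Without replicate 3 of SC cells at 8 cP, the lowest of its group, the first was -0.05. The leukocyte and myeloid marker sum, most of it *CD14* and *CSF1R*, was also lowest in the shTRPV4 samples, as was the mean of *LYZ*. The means of *ITGAM* and *CD163* were highest there instead (0.0312 and 0.00426 CPM). Those of *PTPRC* and *CD68* were not lowest there, and *PTPRC* stayed at or under 0.176 CPM.

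*IL18*, a ligand made as a precursor like IL-1β (chromosome 11, 112143253 to 112164096, minus strand), had the highest level per kilobase and moved with viscosity. It had 17.3, 15.8 and 16.2 CPM in SC cells at 0.77 cP, 12.3, 13.7 and 11.5 at 8 cP and 11.3, 11.7 and 11.9 in shTRPV4 cells. Every sample at 8 cP lay below every sample at 0.77 cP, and the 2 groups at 8 cP overlapped. The endothelial marker sum, nearly all of it *PECAM1*, was likewise highest in the samples at 0.77 cP. Another of its markers, *VWF*, had its highest mean in shTRPV4 cells (0.0778, 0.031 and 0.12 CPM in the same order). The means were 16.5 ± 0.803, 12.5 ± 1.13 and 11.6 ± 0.275 CPM (SD, n = 3). The log2 fold change was -0.40 (SE 0.073) between the viscosities, -0.11 (SE 0.074) for shTRPV4 minus SC cells at 8 cP and -0.50 (SE 0.073) against SC cells at 0.77 cP. Its receptor genes were near 0: *IL18R1* had at most 8 counts in a sample and *IL18RAP* none in any.

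*IL33* and its receptor gene *IL1RL1* were not detectable at this depth. *IL33* (chromosome 9, 6215786 to 6257983, plus strand), whose product is an alarmin held in the nucleus, had 1 count in replicate 2 of SC cells at 0.77 cP, 1 in replicate 1 of SC cells at 8 cP and 0 in the other 7 samples. *IL1RL1* (chromosome 2, 102311502 to 102352037, plus strand, with 95 exon bases shared with *IL18R1*) had no count in the 6 SC samples and 1 count in each of the 3 shTRPV4 samples. A floor of 3 counts corresponded to 0.0292 to 0.0468 CPM, depending on the library, and both genes lay under it in every sample, so no fold change was taken.

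Counted over the members, with 18264 genes tested by edgeR's quasi-likelihood test and an adjusted p below 0.05 as the threshold, 2 of the 6 members that passed the filter were called between the viscosities in SC cells, against 19.3% of all genes. These were *IL1R1* and *IL18*, both lower at 8 cP (of all genes, 9.57% were called higher and 9.69% lower). For shTRPV4 minus SC cells at 8 cP, 3 of 6 were called, against 20.0% of all genes, with *IL1A* and *IL1RN* higher and *IL1RAP* lower (9.02% and 11.0% of all genes). With shTRPV4 cells set against SC cells at 0.77 cP, 5 of 6 were called, against 42.4% of all genes, with *IL1B* as the exception; 20.4% of all genes were called higher and 22.0% lower. In each comparison the members called were those whose samples did not overlap between the groups, and 38.4%, 36.3% and 50.6% of all genes had samples that did not overlap. The 3 comparisons share samples with each other and are not independent. Since the list was drawn up with results of these samples known, nothing is read from these counts beyond the values above. The median log2 fold change of the 6 members was -0.30, 0.25 and -0.16 in the same order, beside -0.006, 0.001 and -0.011 over all genes.

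**Figure D3:**
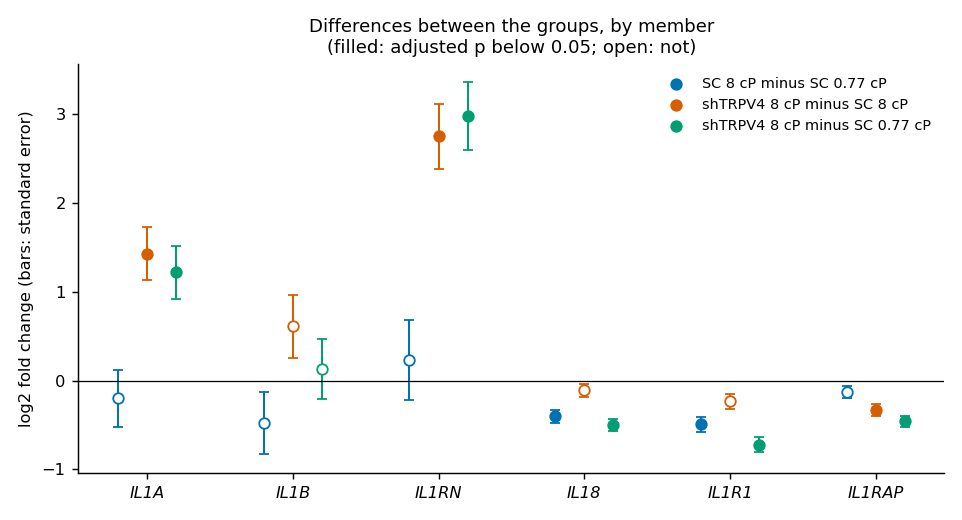
Log2 fold change (y axis, bars standard error) of the 6 members in the 3 comparisons, coded as the first group minus the second; filled points had an adjusted p below 0.05 over all genes tested. *IL1RN* and *IL1A* stood above 0 in both comparisons of shTRPV4 cells, by 2.75 and 2.98 and by 1.43 and 1.22, and the members more abundant in these cells lay between -0.72 and -0.11.

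Genes with a pattern like that of the scarce members were sought among the 15308 genes that averaged 0.3 CPM or more, by the root mean square difference of log2 CPM values centred on each gene's mean over the 9 samples. For *IL1RN* the near ones reported here were *TRIM54* (difference 0.77 on the log2 scale), which encodes a tripartite motif protein of muscle, and *IL24* (0.79), which encodes a cytokine of the IL-10 family. The values of *IL1RN* itself deviated from their mean by 1.61. *IL24* went from 0.527 ± 0.203 CPM in SC cells at 0.77 cP and 1.06 ± 0.237 at 8 cP to 4.05 ± 0.820 CPM in shTRPV4 cells (SD, n = 3). For *IL1A* the nearest were the non-coding gene *ARNT2-DT* (0.28), *LUM* (0.33), which encodes the matrix proteoglycan lumican and carried most of the fibroblast marker sum, and the T cell receptor segment *TRBV12-4* (0.34), against 0.74 for *IL1A* itself. For *IL1B* they were ENSG00000249492 (0.18), *TMEFF1* (0.20) and *SUMO2P17* (0.27), against 0.47 for *IL1B* itself. These are likenesses over 9 samples of shared groups and libraries.

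*IL1A*, *IL1B* and *IL1RN* lie in the cluster of IL-1 ligand genes on chromosome 2, with *IL37*, *IL36G*, *IL36A*, *IL36B*, *IL36RN* and *IL1F10* between *IL1B* and *IL1RN*. None of these 6 passed the filter, so the difference could be followed only at the edges of the cluster. *IL1A* and *IL1B* are 45.3 kb apart, with log2 fold changes of 1.43 and 0.61 in shTRPV4 minus SC cells at 8 cP. *CKAP2L*, a mitotic spindle gene that lies 9.3 kb from *IL1A* and shares 475 exon bases with *NT5DC4* on the other strand, had 103 ± 6.98 CPM in shTRPV4 and 98.2 ± 8.12 CPM in SC cells at 8 cP, a log2 fold change of 0.07 (SE 0.065, edgeR adjusted p = 0.515). *PSD4*, an exchange factor gene 23.3 kb beyond *IL1RN*, rose from 5.10 ± 0.562 to 7.05 ± 0.905 CPM, a log2 fold change of 0.47 (SE 0.11, edgeR adjusted p = 0.00564). Of the 8 genes fixed as flanking this cluster and that of the receptor genes, 6 passed the filter. This list and those of the paragraphs below were drawn up with results of these samples known. The p-values of their genes are therefore not independent evidence of a difference. Between the viscosities 3 of the 6 were called, for shTRPV4 minus SC cells at 8 cP 4, and against SC cells at 0.77 cP 6. The shares of all genes were 19.3%, 20.0% and 42.4%. In shTRPV4 minus SC cells at 8 cP 3 were called higher (*PSD4*, *POLR1B* by 0.42, edgeR adjusted p = 0.000527, and *TTL* by 0.22, edgeR adjusted p = 0.0376) and 1 was called lower (*MAP4K4* by -0.26, edgeR adjusted p = 0.000496), with a median of 0.14. The call of *TTL* was lost on leaving out 4 of the 9 samples, 1 at a time (replicates 1 and 2 of both groups at 8 cP). Between the viscosities 3 were called higher at 8 cP (*TTL*, *CKAP2L* and *POLR1B*, with log2 fold changes of 0.38, 0.35 and 0.32) and none was called lower. Against SC cells at 0.77 cP, 4 were called higher and 2 lower in shTRPV4 cells. Of these, the call of *PSD4* was lost without replicate 2 of SC cells at 0.77 cP or replicate 1 or 3 of shTRPV4 cells. That of *SLC20A1*, which was lower, was lost without replicate 1 or 2 of SC cells at 0.77 cP or replicate 2 or 3 of shTRPV4 cells. The receptor genes lie in a second cluster of the same chromosome, where *IL1R1* is 7.1 kb from *IL1RL2* and 36.0 kb from *IL1R2*.

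**Figure D4:**
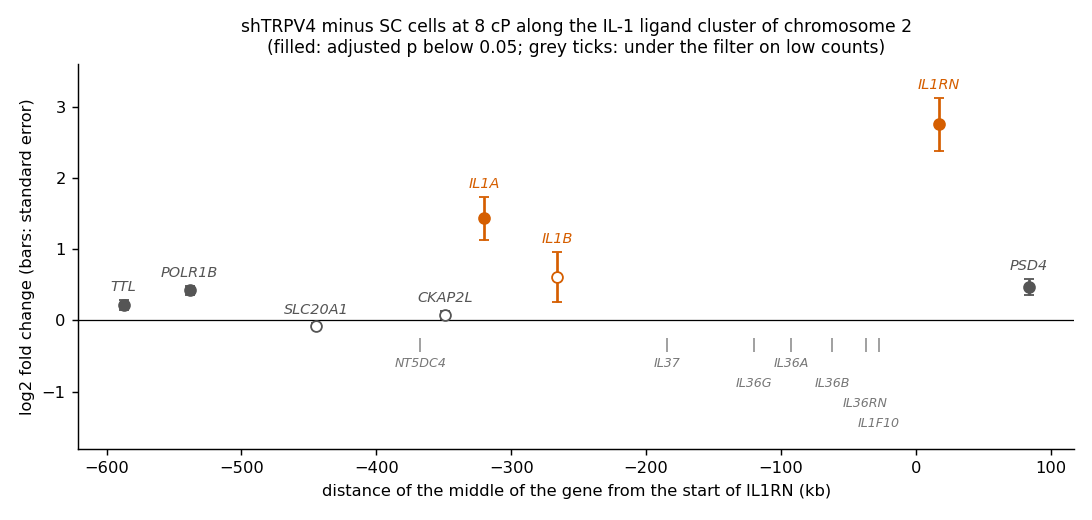
Log2 fold change of shTRPV4 minus SC cells at 8 cP (y axis, bars standard error) against the distance of the middle of each gene from the start of *IL1RN* (x axis, kb); filled points had an adjusted p below 0.05 and grey ticks are genes under the filter. *IL1RN* and *IL1A* stood at 2.75 and 1.43 while the flanking genes drawn lay within 0.5 of 0.

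Other genes of the family were fixed as a list of 14, of which 5 passed the filter; the highest count among the other 9 was 8, and 4 of those had no count in any sample. *SIGIRR*, whose product is an orphan receptor that dampens IL-1 and Toll-like receptor signals (chromosome 11, 405716 to 417455, minus strand), was the only one of the 5 called in any of the 3 comparisons (*IL1RAPL1* was called between the viscosities without replicate 3 of SC cells at 0.77 cP). It went from 25 ± 1.28 CPM in SC cells at 0.77 cP to 20.8 ± 1.38 at 8 cP and 10.2 ± 0.595 in shTRPV4 cells (SD, n = 3). The samples of the 3 groups did not overlap. It fell by 1.03 on the log2 scale in shTRPV4 against SC cells at 8 cP (SE 0.070, edgeR adjusted p = 1.49e-07) and by 1.29 against SC cells at 0.77 cP (SE 0.070, edgeR adjusted p = 2.86e-09). Between the viscosities the log2 fold change was -0.26 (SE 0.067, edgeR adjusted p = 0.0146), a call that was lost without replicate 1 or 2 of SC cells at 0.77 cP or replicate 3 of SC cells at 8 cP, with an adjusted p of up to 0.0986. *IL1R2*, the decoy receptor, had 0.168 ± 0.0285, 0.0978 ± 0.0701 and 0.0790 ± 0.0607 CPM. *IL1RL2*, the receptor for IL-36, had 1.30 ± 0.242, 1.08 ± 0.220 and 1.24 ± 0.132 CPM. *IL18BP*, which encodes the soluble binder of IL-18 and shares 1031 exon bases with *NUMA1* on the other strand, had 2.84 ± 0.477, 2.63 ± 0.424 and 3.15 ± 0.494 CPM. *IL1RAPL1*, a synaptic relative of the accessory chain, had 18.1 ± 1.17, 20.3 ± 1.53 and 17.9 ± 0.208 CPM.

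Genes that process and release the ligands (inflammasome sensors, caspases, gasdermins and calpains) were fixed as a list of 19, of which 17 passed the filter and *CASP5* and *MEFV* did not. In the 3 comparisons 2, 3 and 7 of the 17 were called, beside 19.3%, 20.0% and 42.4% of all genes. Between the viscosities none was called higher and 2 were called lower. These were *NLRP1*, an inflammasome sensor, by 0.50 on the log2 scale (33.9 ± 3.79 to 24.0 ± 1.64 CPM, edgeR adjusted p = 0.000571), and *AIM2*, a sensor of cytosolic DNA, by 0.30 (edgeR adjusted p = 0.0355). The samples of *AIM2* overlapped and its call was lost on leaving out 1 of 4 samples, replicates 1 and 2 of SC cells at 0.77 cP and replicates 1 and 3 of SC cells at 8 cP. *NLRP1* shares 1500 exon bases with an unnamed gene on its own strand, and *AIM2* shares 500 with *RAD1P2*, also on its own strand. In shTRPV4 minus SC cells at 8 cP none was called higher and 3 were called lower: *CAST*, which encodes the calpain inhibitor calpastatin, by 0.19 (edgeR adjusted p = 0.00467), *NLRP3*, an inflammasome sensor, by 0.46 (edgeR adjusted p = 0.0184), and *CASP4*, an inflammatory caspase, by 0.22 (edgeR adjusted p = 0.0231). The channel gene *PANX1* was 0.14 higher without overlap of samples, but was not called (edgeR adjusted p = 0.0567). It became called without replicate 1 of SC cells at 0.77 cP and under 4 of the other alternatives. *AIM2* and *PYCARD* were each 0.23 lower and not called (edgeR adjusted p = 0.0962 and 0.0891). *NLRP3* shares 3139 of its 4753 exon bases with an unnamed gene on its own strand, and *CAST* shares 677 with genes on the other strand. The calls of *NLRP3* and *CASP4* were lost on leaving out 1 sample, which was replicate 3 of SC cells at 8 cP or replicate 2 or 3 of shTRPV4 cells for *NLRP3*, and replicate 2 or 3 of SC cells at 8 cP or replicate 1 or 3 of shTRPV4 cells for *CASP4*. Against SC cells at 0.77 cP shTRPV4 cells had 1 higher, the channel gene *PANX1* by 0.20 (edgeR adjusted p = 0.00332), and 6 lower, *PYCARD*, the inflammasome adaptor, by -0.43 among them (edgeR adjusted p = 0.00128, with 991 exon bases shared with an antisense gene). This count of 7 became 5 to 6 when any 1 sample was left out. *CASP4* and *NLRP3*, both among the lower ones, had samples that overlapped. Their calls were lost in 7 and 4 of the 9 such fits. The medians of the 17 genes were 0.02, -0.05 and -0.09.

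All 20 genes listed for signalling below the receptor passed the filter. In the 3 comparisons 5, 6 and 9 of the 20 were called, beside 19.3%, 20.0% and 42.4% of all genes. Between the viscosities 3 were called higher and 2 lower at 8 cP. *CHUK*, an IκB kinase gene, and *IRAK1* rose by 0.26 and 0.27 (edgeR adjusted p = 0.00701 and 0.00823), while *PELI1*, which encodes a ubiquitin ligase of the IRAK complex, and *IRAK2* fell by 0.50 and 0.29 (edgeR adjusted p = 0.00347 and 0.0102). The call of *IRAK1* was lost without replicate 1 of SC cells at 0.77 cP or replicate 3 of SC cells at 8 cP (adjusted p of up to 0.0517), and that of *IRAK2* without replicate 2 of SC cells at 0.77 cP or replicate 3 of SC cells at 8 cP (up to 0.0704). The count of 5 became 3 without replicate 1 or replicate 2 of SC cells at 0.77 cP and 2 without replicate 3 of SC cells at 8 cP. In shTRPV4 minus SC cells at 8 cP 2 were called higher and 4 lower. The 4 were *PELI2*, a relative of *PELI1*, from 1.98 ± 0.174 to 0.695 ± 0.162 CPM (log2 fold change -1.51, SE 0.19, edgeR adjusted p = 4.54e-05; 177 exon bases shared with an antisense gene), *PELI1* from 6.13 ± 0.707 to 4.16 ± 0.430 CPM (-0.56, edgeR adjusted p = 0.00125), *TAB1*, an adaptor of the TAK1 kinase (-0.24, edgeR adjusted p = 0.00452), and *IRAK3*, the kinase-dead inhibitory member (-0.57, edgeR adjusted p = 0.0101, lost without replicate 2 of shTRPV4 cells). Against SC cells at 0.77 cP, 4 were called higher and 5 lower, *PELI1* by -1.06 and *PELI2* by -1.76 (edgeR adjusted p = 1.17e-06 and 3.06e-06). The number called ranged from 7 to 10 when 1 sample was left out. The call of *TOLLIP*, which was lower (-0.12), was lost in 8 of the 9 such fits, and that of *IRAK1*, which was higher, in 3. The medians of the 20 genes were 0.00, 0.01 and 0.00.

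Genes known to respond to IL-1 were fixed as a list of 27, of which 24 passed the filter. They were mostly lower in SC cells at 8 cP than at 0.77 cP: 17 were called lower and none higher, with a median of -0.55. Of all genes, 9.69% were called lower and 9.57% higher. The collagenase gene *MMP1* was 0.66 higher on the log2 scale, from 6.72 ± 1.32 to 10.6 ± 1.80 CPM (edgeR adjusted p = 0.0642, not called). Its samples did not overlap. It became called without replicate 3 of SC cells at 0.77 cP or replicate 1 or 3 of shTRPV4 cells, and under 2 of the other alternatives. This list, too, was drawn up with results of these samples known, so its count and the p-values of its genes are not independent evidence of a direction. *IL6* fell by 2.54 on the log2 scale (29.3 ± 7.48 to 5.00 ± 0.326 CPM, edgeR adjusted p = 3.82e-08), *CSF2*, which encodes the cytokine GM-CSF, by 2.0 (22.2 ± 1.11 to 5.53 ± 0.457 CPM, edgeR adjusted p = 1.62e-10), *TNFAIP3*, which encodes the NF-κB inhibitor A20, by 0.93 (edgeR adjusted p = 7.59e-07) and *IER3* by 0.88 (edgeR adjusted p = 4.05e-08). *IL6* and *IER3* share 428 and 525 exon bases with antisense genes. In the same comparison *IL1A* and *IL1B* had -0.20 and -0.48, each with an SE above 0.30, and *IL1R1* had -0.49. In shTRPV4 minus SC cells at 8 cP, where *IL1A* and *IL1RN* were high, the same list had 4 called higher and 3 called lower. The shares of all genes were 9.02% and 11.0%, and the median of the list was 0.08. Of the lower calls, those of *PTGS2* (-0.53) and *PTGES* (-0.39) were each lost in 5 of the 9 fits that left out 1 sample. The samples of *PTGES* overlapped. The calls of *MMP1*, which was lower, and of the 4 higher genes were lost in none of these fits. *RELB* and *NFKB2*, subunits of NF-κB, rose by 0.55 and 0.29 (edgeR adjusted p = 1.81e-05 and 0.000333), *TNFAIP3* rose by 0.38 (edgeR adjusted p = 0.00243), and *MMP1*, a collagenase gene, fell by 1.29 (10.6 ± 1.80 to 4.30 ± 2.23 CPM, edgeR adjusted p = 0.0017; 223 exon bases shared with an antisense gene). *IL6* and *CSF2* had log2 fold changes of 0.42 and 0.16 there (edgeR adjusted p = 0.084 and 0.201). The *IL6* samples of these 2 groups did not overlap, and *IL6* became called without replicate 2 or 3 of SC cells at 0.77 cP or replicate 1 of shTRPV4 cells, with an adjusted p down to 0.0196, and under 2 of the other alternatives. Against SC cells at 0.77 cP shTRPV4 cells had 2 called higher and 15 called lower, beside 20.4% and 22.0% of all genes, with a median of -0.59. The chemokine gene *CXCL8* was among the lower ones, from 54.9 ± 16.0 to 9.61 ± 2.75 CPM (log2 fold change -2.51, edgeR adjusted p = 2e-07), with 11.1 ± 1.19 CPM in SC cells at 8 cP. These genes also answer to many other signals, and no IL-1 protein or receptor activity was measured here.

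**Figure D5:**
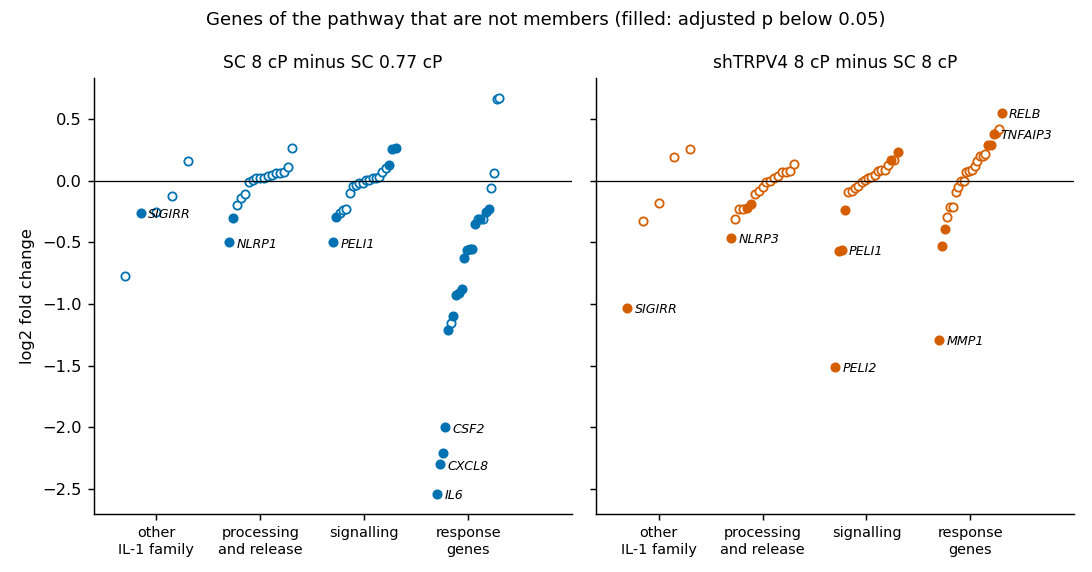
Log2 fold change (y axis) of the pathway genes that are not members, by list (x axis, genes in order of value within a list), for SC cells at 8 cP minus 0.77 cP (left) and shTRPV4 minus SC cells at 8 cP (right); filled points had an adjusted p below 0.05. On the left 17 of 24 response genes were called lower, *IL6* the lowest at -2.54; on the right *PELI2*, *MMP1* and *SIGIRR* stood lowest at -1.51, -1.29 and -1.03.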

How the data were processed

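RNA of 9 MDA-MB-231 samples was analysed, with groups and replicate numbers taken from the sample titles. The authors prepared strand-specific poly(A) libraries, mapped paired reads to GRCh38.p13 with HISAT2 2.2.1, used SAMtools 1.1.3 per the submitters' notes, and deposited raw counts per gene of Ensembl release 104 from HTSeq 0.13.5. The strand option of the counting is not given in the sources used here, so exon bases shared with other genes were computed from GENCODE release 44, which also gave symbols for 60463 of the 60664 identifiers. Counts were scaled by TMM, filtered by filterByExpr and fitted in edgeR 4.0.16 (R 4.3.3) with 1 coefficient per group over all 9 samples. Comparisons were tested by the quasi-likelihood test with Benjamini-Hochberg adjustment over 18264 genes, called at an adjusted p below 0.05. The common biological coefficient of variation was 0.0633. P-values judge a difference between groups against the spread between samples of a group, and that spread may be technical.

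The members, and the lists of pathway genes, were chosen with earlier results of these data known, so no p-value is given for a member. Those given for genes of the lists describe these samples and are not independent evidence of a difference. The other genes named are TRPV4, for each list and comparison the 4 called genes of smallest adjusted p, all tested genes of the family list, and the 3 genes nearest to IL1RN, IL1A and IL1B in pattern (log2 CPM with a prior count of 2), of which 1 is not reported here. IL6 and CSF2 at 8 cP, CKAP2L at 8 cP, CXCL8 in SC cells at 8 cP, CD8A, CD14 and the other markers are named besides. So are further list genes whose call changed when a sample was left out. No identifier was matched for SOD2, and CCL20 and MMP3 were under the filter. The fits were tested on simulated data. No pair of replicates agreed within sampling noise. Alternatives were DESeq2 1.42.0, other scalings, no filter, at least 10 counts in every sample, a block for the replicate number, fits on 6 samples, leaving out each sample, and the longest transcript as length.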

Additional observations from a re-analysis of the deposited data

How the results depend on the processing

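Across the alternatives, 279 of 285 member log2 fold changes kept their side of the threshold, and none that was called changed sign. The other 6 were *IL1R1* in shTRPV4 minus SC cells at 8 cP, which became called (log2 fold change -0.29 to -0.23) with no filter, with the 6 samples of the comparison, with DESeq2, and without replicate 3 of SC cells at 0.77 cP, of SC cells at 8 cP or of shTRPV4 cells. *IL1RN* could not be tested with at least 10 counts in every sample. Leaving out each sample in turn gave 1409 to 4349 genes called between the viscosities (3518 with all samples) and 2179 to 3836 for shTRPV4 minus SC cells at 8 cP (3649). The former fell to 1409 and 1927 without replicates 1 and 2 of SC cells at 0.77 cP and to 1418 without replicate 3 of SC cells at 8 cP, and the latter to 2361 and 2179 without replicates 1 and 2 of SC cells at 8 cP; the cause was not tested. Members called ranged from 2 to 2, 3 to 4 and 5 to 5. The log2 ratio of *IL1RN* to the agonists in shTRPV4 cells moved from -0.69 to -0.14 with the longest transcript, since that setting shortens *IL1RN* and *IL1B* but not *IL1A*. DESeq2 called 4006, 3848 and 7607 genes, against 3518, 3649 and 7752. The 2 processing genes called between the viscosities became 1 without replicates 1 or 2 of SC cells at 0.77 cP or replicates 1 or 3 of SC cells at 8 cP, and the 7 response genes called for shTRPV4 minus SC cells at 8 cP became 11 with no filter. Same-numbered samples had correlations of -0.0546 to 0.0904 in their deviations from the group means, so the replicate numbers did not pair the samples; with the number as a block 3475, 3607 and 7731 genes, 2, 3 and 5 members and 28, 19 and 39 genes of the fixed lists were called, beside 28, 21 and 40 without it. Depth limits *IL1A*, *IL1B* and *IL1RN*, which rest on 3 to 241 counts a sample.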
